A study of Mus musculus with 4 samples.

Results

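The genes described here are 38 members of the glycolytic pathway and of the transcriptional response to low oxygen: 4 carriers of glucose and lactate, 17 glycolytic enzymes with the regulator Pfkfb3, 2 pyruvate dehydrogenase kinases, Hif1a with 2 of its oxygen-sensing hydroxylases, and 11 genes that hypoxia commonly induces. The rule names the genes and uses no measured value, and each symbol matched exactly 1 of the 39056 genes of the count table. All 38 reached 1 CPM (reads scaled to the size of the library) in at least 1 of the 4 libraries, as did 11803 genes in all, which are called measured genes.

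Polyadenylated RNA was sequenced from lungs of S1PR1-GFP reporter mice, in which green fluorescent protein marks cells expressing the sphingosine-1-phosphate receptor S1PR1. The labels describe flow-sorted endothelial cells that carried the reporter and CD31 and lacked CD45, a protein of leukocytes. The 4 groups, of 1 library each, shared the reporter and the sort and differed in lipopolysaccharide (LPS), a bacterial outer-membrane component that injures lung endothelium: no LPS, or LPS at 10 mg/kg into the peritoneum with a label of 8, 16 or 20 h. The labels give neither age nor sex, whether mice were pooled, nor whether the hours run from a single injection. The title of the series names the repair of lung vessels by such cells as its subject.

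Glycolysis splits glucose into pyruvate in the cytosol: hexokinase traps the sugar, phosphofructokinase commits it, and the later enzymes recover ATP and NADH. Lactate dehydrogenase regenerates NAD by turning pyruvate into lactate, which leaves the cell through monocarboxylate carriers. In low oxygen the prolyl hydroxylases that mark HIF-1 alpha for destruction lose activity, and the stabilised factor, paired with ARNT, binds hypoxia response elements and raises transcription of glucose transporters, glycolytic enzymes, pyruvate dehydrogenase kinases and carbonic anhydrase genes. Lung endothelium is known as a strongly glycolytic tissue, and HIF activity in it can also be raised by inflammation.

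The libraries held between 27566454 and 28905776 counted reads, and 3 reads, the upper limit that a count of 0 allows, corresponded to 0.104 to 0.108 CPM. Values of the 4 libraries are given throughout in the order no LPS, 8 h, 16 h, 20 h. Endothelial markers went against the labels. Of 12 such genes only Eng and Egfl7 were measured, Erg, Emcn and Cldn5 had 0 reads throughout, and the list summed to 58.4, 59.8, 62.7 and 60.3 CPM. Pecam1, which encodes CD31, had 7, 2, 2 and 1 reads, Cdh5 had 5, 6, 6 and 9, S1pr1 had 27, 87, 79 and 29, and Ptprc, which encodes CD45, had 42, 37, 31 and 38. An hour below is the label of a library. Markers of other cells were counted as well. Of 9 epithelial markers Krt8 and Krt18 were measured, both called higher at 8 and at 16 h, with Sftpb at 0 in all libraries, and the list summed to 52.4, 124, 126 and 52.9 CPM. Of 12 mesenchymal markers 6 were measured, mostly as Vim, with Col3a1 and Dcn called lower at 8 and at 16 h, Tcf21 at 0 in all libraries and Col1a1 at no more than 4 reads, and the list summed to 2815, 3125, 3246 and 3007 CPM. The 8 macrophage markers (5 measured, mostly Cd68) summed to 125, 95.4, 93.9 and 128 CPM, while Adgre1, with 12, 31, 77 and 24 reads, was called higher at 8 and 16 h and Csf1r, with 9, 15, 30 and 26, at 16 h. The 6 neutrophil markers (2 measured, S100a8 at 34, 6, 7 and 25 and Mmp9 at 13, 16, 34 and 33 reads) summed to 1.70, 0.906, 1.59 and 2.17 CPM. Leukocyte markers (7 of 8 measured) summed to 16.0, 16.4, 16.6 and 16.7 CPM, and 4 erythroid markers, none measured, to at most 0.244 CPM. Over all measured genes 4.19% were called higher and 4.13% lower at 8 h, and 4.13% and 4.09% at 16 h. The part of these cell types in the differences described here was not tested. In bulk libraries fewer cells of a type and less RNA per cell cannot be told apart.

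With 1 library per label no difference between a pair of labels has a replicate check, and every interval below is a 95% counting interval, covering the sampling of reads alone. Folds were taken on scaled counts. The word called is kept for genes at least 2-fold apart whose interval excluded 1 and whose higher library reached 1 CPM. The closest pair of libraries was that labelled 8 and 16 h. Across measured genes their squared differences averaged 1.63 times what sampling of reads alone gives, against 7.38 for no LPS and 20 h and 74.0 to 79.6 for the other 4 pairs. Over the 38 members the same quantity was 4.59 for 8 and 16 h, 19.8 for no LPS and 20 h, and 262 to 309.6 for the rest. It grows with the number of reads, and most members are abundant, so these values do not measure larger folds. The median absolute log2 ratio of members was 0.042 for 8 and 16 h, against 0.051 over measured genes. For no LPS and 20 h it was 0.093 against 0.080, and for the rest 0.316 to 0.384 against 0.270 to 0.284.

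The first question was how the pathway stood in each LPS library against no LPS. At 8 and 16 h the members split: several isoforms of the early and late glycolytic enzymes were higher, while the glucose transporters and many of the hypoxia-induced genes were lower. Nearly all of these differences were below 2-fold. Measured genes as a whole also stood on both sides beyond their counting intervals, 35.3% higher and 34.7% lower at 8 h and 35.7% and 35.0% at 16 h. At 8 h 1 of the 38 members was called, the carbonic anhydrase gene Car9, which was lower, where 8.31% of measured genes were called (4.19% higher, 4.13% lower). At 16 h it was again Car9 alone, against a background of 8.23% (4.13% higher, 4.09% lower), and at 20 h it was none, against 0.652% (0.551% higher, 0.102% lower). In none of these 3 comparisons, which share the no LPS library, did the members' count exceed the background.

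A fold threshold of 1.5, with the same interval and CPM conditions, was passed by 5 members at 8 h, of which Hk1, Pfkm and Gapdh were higher and Car9 and P4ha1 lower, where 19.9% of measured genes passed (10.4% higher, 9.41% lower). It was passed by 6 at 16 h, with Hk1, Pfkfb3 and Gapdh higher and Aldoc, Car9 and P4ha1 lower (background 20.0%, of which 10.6% higher and 9.40% lower), and 1 at 20 h, Ldhb, lower (background 2.0%, of which 1.72% higher and 0.280% lower). Intervals excluded 1 for 29 members at 8 h, 13 above and 16 below, where 70.0% of measured genes did so (35.3% above, 34.7% below). At 16 h they did for 31 members, 15 above and 16 below (background 70.6%, of which 35.7% above and 35.0% below). At 20 h they did for 24 members, 8 above and 16 below (background 26.4%, of which 14.6% above and 11.8% below). Most members are abundant transcripts, so small differences pass this last criterion more easily than in a gene of few reads. The median log2 ratio of the members was -0.03 at 8 h, -0.01 at 16 h and -0.05 at 20 h, beside 0.0041, 0.0055 and -0.0023 over all measured genes.

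**Figure D1:**
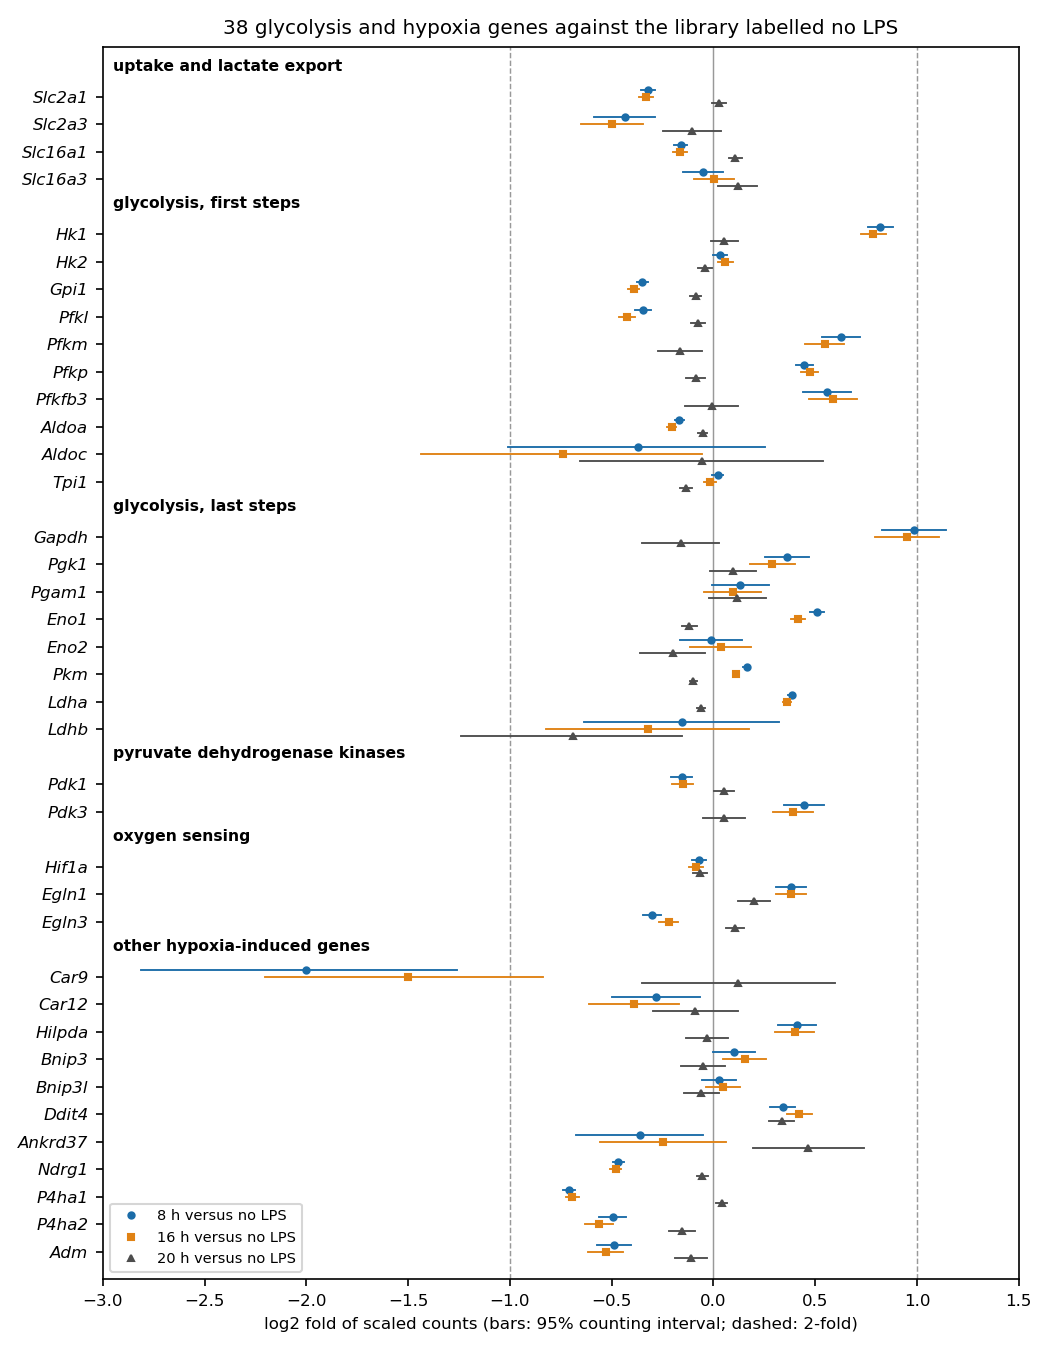
Log2 fold of each member in the libraries labelled 8 h (circles), 16 h (squares) and 20 h (triangles) against no LPS, grouped by role, with 95% counting intervals as bars and dashed lines at 2-fold. The 8 and 16 h points lie close together for most members, from Car9 far on the left to Gapdh near the right dashed line, and the 20 h points lie nearer to 0.

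**Figure D2:**
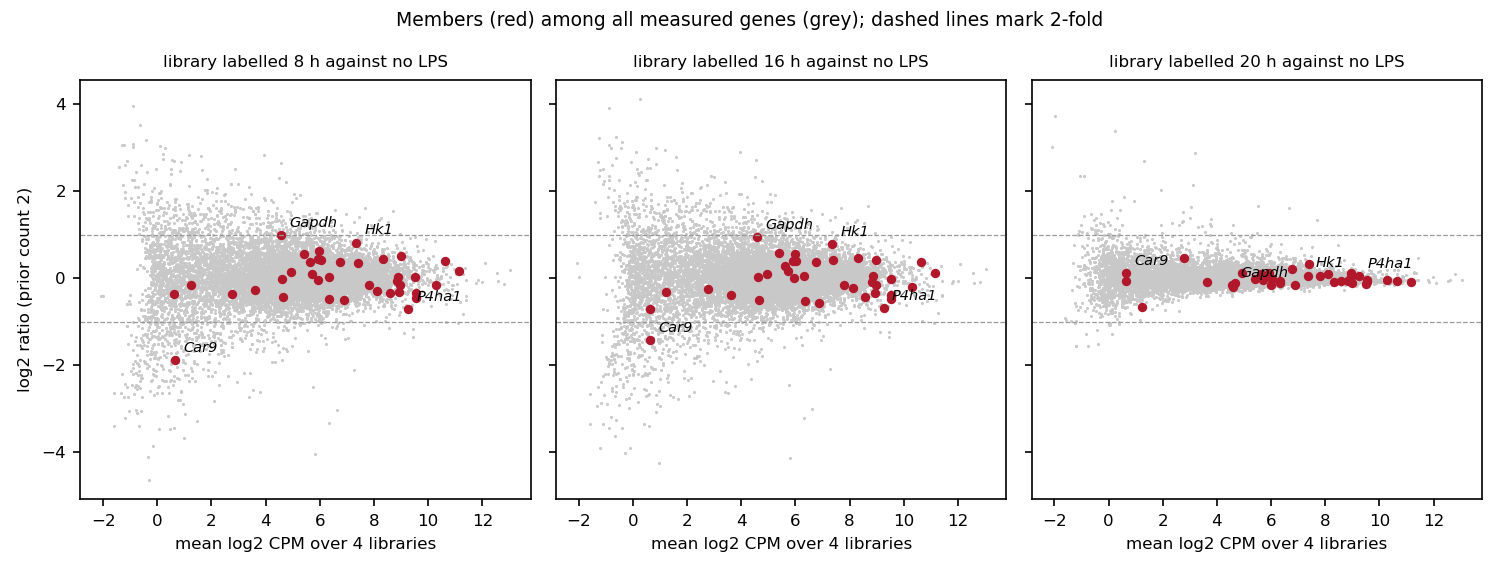
Log2 ratio to no LPS (vertical axis, prior count of 2) against mean log2 CPM over the 4 libraries (horizontal axis) for 11803 measured genes (grey) and the 38 members (red), 1 panel per LPS label. Most members lie at high abundance and inside the dashed 2-fold lines, with Car9 outside them at 8 and 16 h and none outside at 20 h.

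Of the 4 carriers, none was higher at 8 or 16 h beyond its counting interval. Slc2a1, which encodes GLUT1, the main glucose transporter of endothelium (chromosome 4, 119108711 to 119137983, plus strand, mm10), stood at 547, 438, 435 and 558 CPM. It was 1.25-fold lower (1.22 to 1.28) at 8 h and 1.26-fold lower (1.23 to 1.29) at 16 h, and the no LPS and 20 h libraries held the higher values. Slc2a3, which encodes the high-affinity transporter GLUT3, stood at 30.0, 22.2, 21.3 and 27.9 CPM and was 1.35-fold lower (1.22 to 1.5) at 8 h and 1.41-fold lower (1.27 to 1.57) at 16 h. The lactate and pyruvate carrier gene Slc16a1 (MCT1) was at 520.4, 465, 465 and 561 CPM, 1.12-fold lower (1.09 to 1.15) at 8 h and 1.08-fold higher (1.05 to 1.10) at 20 h. Slc16a3, which encodes the lactate exporter MCT4, a known HIF-1 target, was nearly level at 60.6, 58.5, 60.8 and 65.9 CPM, with a ratio of 0.964 (0.901 to 1.03) at 8 h, a ratio of 1.002 (0.936 to 1.07) at 16 h and 1.09-fold higher (1.02 to 1.16) at 20 h.

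Among the first enzymes of glycolysis, paralogues of the same step stood apart. Hexokinase 1 (Hk1, chromosome 10, 62268855 to 62379908, minus strand), the constitutive isoform bound to mitochondria, had 3463, 6211, 5851 and 3522 reads, or 123, 216, 211 and 127 CPM, and was 1.77-fold higher (1.69 to 1.84) at 8 h and 1.72-fold higher (1.65 to 1.80) at 16 h. The no LPS and 20 h libraries were alike in it, with a ratio of 1.04 (0.990 to 1.09) at 20 h. Hexokinase 2 (Hk2), the inducible isoform and a HIF-1 target, stood at 465, 476, 485 and 452 CPM, with a ratio of 1.02 (0.999 to 1.05) at 8 h and 1.04-fold higher (1.02 to 1.07) at 16 h. The hexokinase pair thus differed at 8 and 16 h in Hk1 far more than in Hk2.

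The glucose-6-phosphate isomerase gene Gpi1 stood at 863, 678, 657 and 812 CPM and was 1.27-fold lower (1.25 to 1.30) at 8 h and 1.31-fold lower (1.29 to 1.34) at 16 h. Of the 3 phosphofructokinase genes, the liver-type subunit gene Pfkl stood at 444, 349, 331 and 421 CPM and was 1.27-fold lower (1.24 to 1.31) and 1.34-fold lower (1.31 to 1.38) at 8 and 16 h. The muscle-type gene Pfkm, at 53.0, 81.9, 77.5 and 47.4 CPM, was 1.54-fold higher (1.45 to 1.65) and 1.46-fold higher (1.37 to 1.56), and the platelet-type gene Pfkp, at 275, 375, 382 and 259 CPM, was 1.36-fold higher (1.32 to 1.402) and 1.39-fold higher (1.35 to 1.43). The liver-type subunit was therefore low where the other subunits were high. Pfkfb3, whose product makes the sugar bisphosphate that most strongly activates phosphofructokinase, stood at 34.9, 51.3, 52.4 and 34.6 CPM. It was 1.47-fold higher (1.36 to 1.60) at 8 h and 1.503-fold higher (1.38 to 1.63) at 16 h, with a ratio of 0.994 (0.908 to 1.09) at 20 h. Aldolase A (Aldoa), which splits the sugar phosphate, stood at 1352, 1204, 1174 and 1303 CPM and was 1.12-fold lower (1.11 to 1.14) and 1.15-fold lower (1.14 to 1.17). Its brain-type paralogue Aldoc had 51, 40, 30 and 48 reads, which leaves wide intervals, with a ratio of 0.772 (0.497 to 1.19) at 8 h and 1.67-fold lower (1.04 to 2.71) at 16 h. Triose-phosphate isomerase (Tpi1), which interconverts the resulting trioses, was level at 8 and 16 h, at 749, 759.9, 740.0 and 682 CPM, and 1.10-fold lower (1.08 to 1.12) at 20 h.

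In the later, energy-yielding steps 5 of 8 genes had intervals above 1 at 8 h and at 16 h, and none had an interval below it, beside 35.3% above and 34.7% below over all measured genes at 8 h (35.7% and 35.0% at 16 h). Gapdh, the enzyme that reduces NAD (chromosome 6, 125161715 to 125166467, minus strand), had 493, 991, 934 and 432 reads, or 17.4, 34.5, 33.7 and 15.6 CPM. It was 1.98-fold higher (1.77 to 2.21) at 8 h and 1.93-fold higher (1.73 to 2.16) at 16 h, just short of the 2-fold threshold, with a ratio of 0.894 (0.784 to 1.02) at 20 h. Phosphoglycerate kinase (Pgk1), the first step to yield ATP, stood at 43.4, 55.8, 53.1 and 46.5 CPM and was 1.28-fold higher (1.19 to 1.38) and 1.22-fold higher (1.13 to 1.32) at 8 and 16 h. Phosphoglycerate mutase (Pgam1), at 28.9, 31.7, 30.9 and 31.4 CPM, had intervals including 1 in all 3 comparisons, the largest being a ratio of 1.10 (0.997 to 1.21) at 8 h. Enolase 1 (Eno1) stood at 440.0, 626, 587 and 405 CPM and was 1.42-fold higher (1.39 to 1.46) and 1.33-fold higher (1.30 to 1.36), while the neuronal enolase Eno2, at 25.1, 24.9, 25.7 and 21.8 CPM, had a ratio of 0.993 (0.894 to 1.10) and a ratio of 1.02 (0.922 to 1.14). The muscle enolase Eno3, not a member and named after its values were seen, had 290, 441, 374 and 243 reads and was 1.497-fold higher (1.29 to 1.74) at 8 h and 1.32-fold higher (1.13 to 1.54) at 16 h. Eno1 and Eno3 were thus higher at 8 and 16 h, and Eno2 was level. Pyruvate kinase (Pkm, chromosome 9, 59656368 to 59679375, plus strand), the most abundant member by reads, stood at 2210.3, 2474, 2387 and 2063 CPM and was 1.12-fold higher (1.11 to 1.13) and 1.08-fold higher (1.07 to 1.09). Gene counts do not separate its M1 and M2 splice forms. Lactate dehydrogenase A (Ldha, chromosome 7, 46841475 to 46855627, plus strand), which favours lactate production, stood at 1415, 1846, 1819 and 1357 CPM and was 1.30-fold higher (1.29 to 1.32) at 8 h and 1.29-fold higher (1.27 to 1.30) at 16 h. The B subunit gene Ldhb had 79, 72, 62 and 48 reads, and was 1.61-fold lower (1.11 to 2.36) at 20 h, against a ratio of 0.897 (0.643 to 1.25) at 8 h.

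Several of these enzymes have processed copies in the mouse genome, and the handling of reads that fit several copies was not stated in the sources at hand. Among annotated transcripts of other genes, 153 pseudogenes matched the Gapdh transcript with at least 90% identity over 100 bases or more, and 82.5% of its stretches of 50 bases occurred exactly in another gene. The same share was 72.2% for Eno1, 68.0% for Pgk1, 62.4% for Bnip3, 41.5% for Pgam1, 34.4% for Pkm, 27% for Ldhb, 25.3% for Gpi1, 23.4% for Bnip3l, 17.1% for Pfkp, 16.6% for Ldha, 14.6% for Ndrg1, 13.5% for Aldoa and 11.4% for Ankrd37. Gpi1 matched 171 other genes, 2 of them pseudogenes. The 164 genes matching Gapdh held 2963, 3182, 2929 and 2724 reads, more than the 493, 991, 934 and 432 reads counted on Gapdh itself. Those matching reads differed far less between libraries than the Gapdh reads did. Levels and folds of these genes, and above all of Gapdh, are uncertain. Per kb of exon, Gapdh stood at 4.22, 8.35, 8.16 and 3.77 CPM, below its neighbours in the pathway, Tpi1 at 272, 276, 269 and 248 and Pgk1 at 19.4, 24.9, 23.7 and 20.7. Hk1, Hk2, Pfkm, P4ha1, P4ha2, Pdk3, Hilpda and Adm had at most 2.60% of such stretches in common with another gene.

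Summed over the 17 glycolytic enzyme genes from the hexokinases to the lactate dehydrogenases, with Pfkfb3 left out, reads made up 0.857% (0.854 to 0.860) of the no LPS library (Wilson 95% interval), 0.917% (0.914 to 0.921) at 8 h, 0.895% (0.892 to 0.899) at 16 h and 0.809% (0.805 to 0.812) at 20 h. The share was highest at 8 h and lowest at 20 h. Such a sum follows the genes with the most reads, and the single genes went both ways. Pkm, Ldha and Aldoa held 62471, 39994 and 38220 reads with no LPS and 71026, 53004 and 34563 at 8 h. All 38 members together took 1.32% (1.316 to 1.324), 1.297% (1.293 to 1.301), 1.277% (1.273 to 1.281) and 1.278% (1.274 to 1.282), so that the sum over the whole module varied less than single members did.

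Levels per length were compared between the paralogues of each step. They depend on the length used, here all annotated exons of a gene joined. For Pfkp this was 13401 bases, against 4145 in its longest coding transcript, and for Pfkl 6675 against 3730. Hk2 exceeded Hk1 in all 4 libraries, at 78.0, 79.8, 81.2 and 75.8 against 14.4, 25.4, 24.8 and 14.9 CPM per kb of exon, and Hk1 made up 15.6%, 24.1%, 23.4% and 16.4% of the hexokinase pair. Of the phosphofructokinase subunits per length, Pfkl made up 64.6%, 49.9%, 48.9% and 65.3% in the 4 libraries, and Pfkp 20.0%, 26.7%, 28.2% and 20.0%. Per length the mix of subunits was therefore close to even between Pfkl and the others at 8 and 16 h, and tilted to Pfkl in the remaining libraries. In reads, the share of Pfkl among the 3 subunits was 57.5% (56.8 to 58.1) with no LPS and 43.3% (42.7 to 43.9) at 8 h. The read share of Pfkp exceeded that of Pfkl at 8 h (46.5% against 43.3%) and at 16 h (48.4% against 41.8%). Which subunit led at 8 and 16 h thus depended on the measure. Aldolase and lactate dehydrogenase each came almost entirely from a single gene. Aldoa stood at 465, 414, 403 and 448 and Aldoc at 0.553, 0.427, 0.332 and 0.531 CPM per kb, and Ldha stood at 428, 558, 549 and 409.9 and Ldhb at 1.78, 1.60, 1.43 and 1.10. Slc2a1, at 156, 125, 124 and 159 CPM per kb, was well above Slc2a3, at 4.15, 3.07, 2.93 and 3.86, and Slc16a1, at 118, 105, 105 and 127, above Slc16a3, at 11.4, 11, 11.4 and 12.4. Eno1, at 81.8, 116, 109 and 75.3, likewise exceeded Eno2, at 5.32, 5.29, 5.45 and 4.64.

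**Figure D3:**
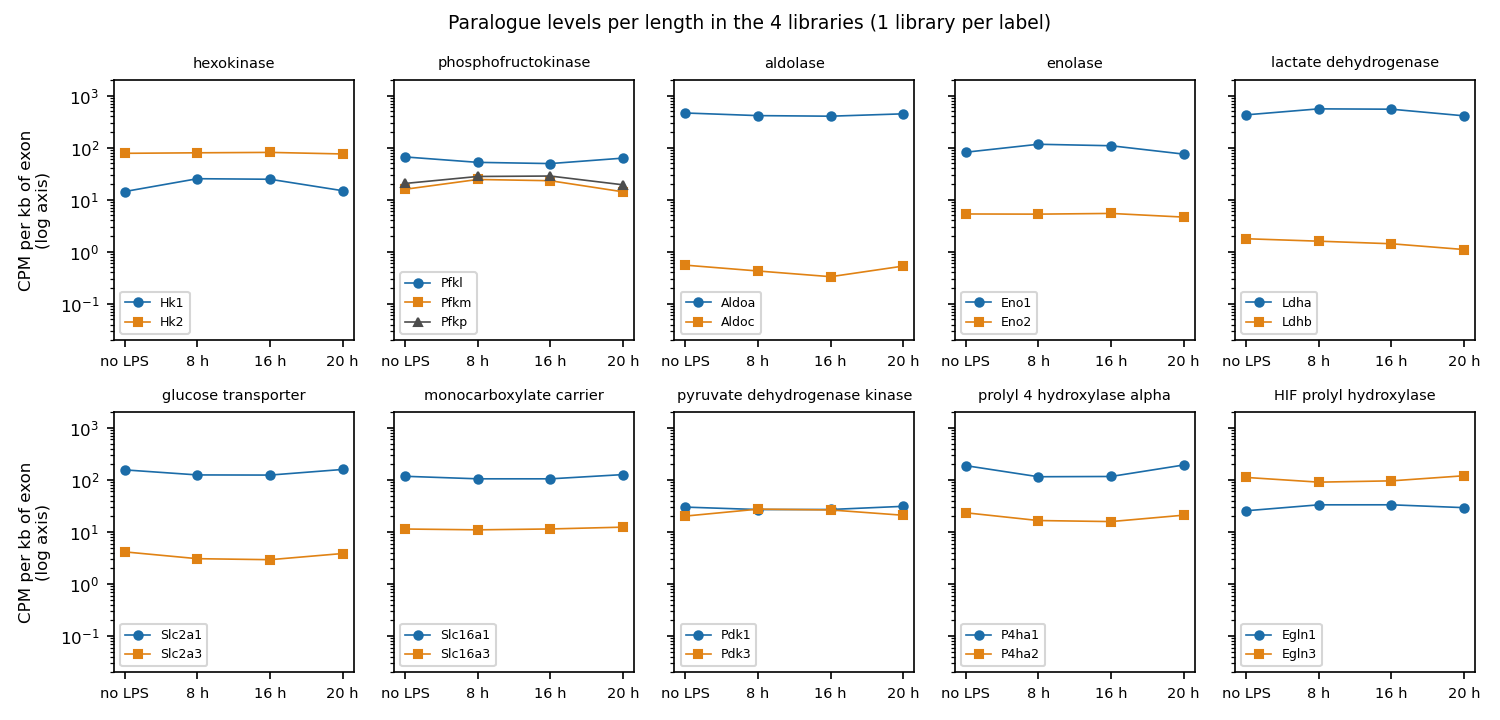
CPM per kb of exon (log axis) of the paralogues of 10 families in the 4 libraries, 1 point per library. The order within a family is the same in every library except for Pdk1 and Pdk3, whose points cross at 8 h.

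Pyruvate dehydrogenase kinases inhibit the pyruvate dehydrogenase complex, which oxidises pyruvate inside the mitochondrion. Pdk1, a HIF-1 target, stood at 234, 209.9, 211 and 242 CPM and was 1.11-fold lower (1.08 to 1.15) at 8 h and 1.11-fold lower (1.07 to 1.15) at 16 h. Pdk3, another inducible isoform, went the other way, at 51.8, 70.4, 67.9 and 53.7 CPM, 1.36-fold higher (1.27 to 1.45) and 1.31-fold higher (1.22 to 1.41). Per length Pdk1 made up 59.8%, 49.6%, 50.5% and 59.8% of the pair. Of 12 genes of pyruvate oxidation (the dehydrogenase complex, its phosphatases, further kinases and the mitochondrial pyruvate carrier) 10 were measured and none was called at 8, 16 or 20 h, with median log2 ratios of -0.10, -0.06 and -0.04. Over all measured genes 8.31%, 8.23% and 0.652% were called.

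Of the 3 oxygen-sensing genes Hif1a differed least. Hif1a itself (chromosome 12, 73901375 to 73947530, plus strand) stood at 474, 451, 447 and 453 CPM and was 1.05-fold lower (1.03 to 1.08) at 8 h, 1.06-fold lower (1.04 to 1.09) at 16 h and 1.05-fold lower (1.02 to 1.07) at 20 h, the no LPS library holding the highest value. Its activity is controlled mainly through protein stability, which RNA counts do not show. Egln1, which encodes PHD2, the main HIF prolyl hydroxylase, stood at 91.9, 119.5, 119.6 and 105 CPM, lowest with no LPS, and was 1.30-fold higher (1.24 to 1.37) at 8 h, 1.30-fold higher (1.24 to 1.37) at 16 h and 1.15-fold higher (1.09 to 1.21) at 20 h. Egln3, which encodes PHD3 and is itself induced by HIF, stood at 298, 241, 256 and 320.3 CPM and was 1.23-fold lower (1.19 to 1.27) at 8 h, 1.16-fold lower (1.13 to 1.20) at 16 h and 1.08-fold higher (1.04 to 1.11) at 20 h. Both hydroxylase genes thus differed, in opposite directions, at 8 and 16 h. Per length Egln3 was the more abundant, at 112, 90.7, 96.1 and 120.3 against 25.6, 33.3, 33.3 and 29.3 CPM per kb.

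Of 11 further regulators of the pathway 9 were measured. Over all measured genes 8.31% were called at 8 h, 8.23% at 16 h and 0.652% at 20 h. Of the 9 regulators 1 was called lower at 8 and at 16 h and none at 20 h. The called gene was Hif3a, a HIF alpha paralogue whose short forms restrain HIF-1, with 68, 16, 26 and 69 reads, 4.32-fold lower (ratio 0.232, 0.125 to 0.404) at 8 h and 2.56-fold lower (ratio 0.390, 0.238 to 0.621) at 16 h. It was named after its values were seen. Arnt, the obligate partner of HIF-1 alpha, was level at 137, 139.5, 136 and 135 CPM, and the asparaginyl hydroxylase gene Hif1an stood at 81.4, 74.0, 74.4 and 78.0. Vhl, which encodes the ubiquitin ligase subunit that removes HIF alpha, stood at 22.9, 22.3, 22.9 and 24.2 CPM. Epas1, which encodes HIF-2 alpha and is strongly expressed in endothelium, had 0, 4, 1 and 0 reads. The median log2 ratios of the list were -0.03, -0.01 and 0.05 at 8, 16 and 20 h.

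The remaining 11 members are genes commonly induced in hypoxia. At 8 h 7 had intervals below 1, 2 above and 2 including it (median log2 ratio -0.36), where 34.7% of measured genes were below and 35.3% above. At 16 h the counts were 6, 3 and 2 (median -0.39), where 35.0% were below and 35.7% above. Below 1 at both hours were Car9, Car12, Ndrg1, P4ha1, P4ha2 and Adm, with Ankrd37 at 8 h. Above 1 at both were Hilpda and Ddit4, with Bnip3 at 16 h. At 20 h the counts were 3 below, 3 above and 5 including 1 (median -0.05), where 11.8% of measured genes were below and 14.6% above. ACGTG, a sequence of hypoxia response elements called the core below, was searched in windows of 250 bases upstream of the RefSeq gene start (build GRCm38.p6, the build of mm10). A window is shown for Car9, the only member called against no LPS, at chr4:43506776-43507025. Another, at chr10:59323046-59323295, is that of P4ha1, the abundant member with the largest ratio on the lower side. The last, at chr7:46845554-46845803, is that of a start of Ldha, a higher member, chosen because it holds ACGTG 5 times. The window of the other Ldha start and those of Gapdh and Hk1, which had the largest ratios on the higher side at 8 and 16 h, hold ACGTG 0 times. The related GCGTG, on either strand, stood 1 time in that Ldha window, 2 times in the Gapdh window and 3 and 0 times in the Hk1 windows. In the windows shown it stood 0 times for Car9, 2 times for P4ha1 and 0 times for Ldha. Each window shown lies on the plus strand and is written 5′ to 3′, with ACGTG on either strand (CACGT when read on this strand) in capitals. A palindromic CACGTG thus holds the core on both strands.
Car9 upstream window: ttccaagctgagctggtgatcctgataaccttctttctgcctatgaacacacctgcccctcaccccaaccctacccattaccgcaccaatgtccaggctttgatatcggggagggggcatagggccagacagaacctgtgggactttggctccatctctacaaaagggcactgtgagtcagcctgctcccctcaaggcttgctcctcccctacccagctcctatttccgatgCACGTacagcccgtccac
P4ha1 upstream window: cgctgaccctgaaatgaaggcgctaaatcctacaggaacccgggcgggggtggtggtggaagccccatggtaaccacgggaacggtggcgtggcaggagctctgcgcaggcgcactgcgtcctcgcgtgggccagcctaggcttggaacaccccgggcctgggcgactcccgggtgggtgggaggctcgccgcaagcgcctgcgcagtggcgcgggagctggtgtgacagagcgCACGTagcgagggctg
Ldha upstream window: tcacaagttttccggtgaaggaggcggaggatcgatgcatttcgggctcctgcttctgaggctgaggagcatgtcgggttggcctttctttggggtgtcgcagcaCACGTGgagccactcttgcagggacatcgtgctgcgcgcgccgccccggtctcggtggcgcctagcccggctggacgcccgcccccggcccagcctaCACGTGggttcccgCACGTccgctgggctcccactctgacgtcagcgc

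Windows were found for 35 of the 38 members, and Slc2a3, Bnip3l and Ndrg1 had none. In these windows the core occurred upstream of 22 of the 35 genes (62.9%), against 18.5% of all 27025 genes with a window of the same length, measured or not. Counted per window the shares were 51.0% of 49 and 16.6% of 32851. Many members were listed as known hypoxia or HIF targets. A larger share among them is thus partly built into the list and is no result of these libraries. The related GCGTG, on either strand, occurred upstream of 65.7% of members and 30.9% of all genes. The windows of members were also richer in G and C, with a median of 62.8% against 52.4% of all windows. Directions were set beside the core ACGTG alone, as a description. At 8 h, of 22 members with the core 9 had intervals above 1 and 9 below, with a median log2 ratio of 0.07, and of 13 without it 4 were above and 5 below, with a median of -0.15. At 16 h the members with the core stood at 11 above and 8 below (median 0.08) and those without it at 4 and 6 (median -0.15). At 20 h the counts were 7 and 7 with it (median 0.03) and 1 and 8 without it (median -0.09). Over all measured genes 35.3% were above and 34.7% below at 8 h, 35.7% and 35.0% at 16 h, and 14.6% and 11.8% at 20 h. Abundant genes, as most members are, pass this criterion more easily. The 3 comparisons share the no LPS library. A match of these letters describes the sequence and shows no binding.

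Car9 (chromosome 4, 43506966 to 43513729, plus strand), a cell-surface carbonic anhydrase used as a marker of hypoxia, had 75, 19, 26 and 80 reads, or 2.65, 0.662, 0.938 and 2.89 CPM. It was 4.01-fold lower (2.40 to 7.03) at 8 h and 2.83-fold lower (1.79 to 4.60) at 16 h, with a ratio of 1.09 (0.784 to 1.51) at 20 h, and its counts are the lowest of any hypoxia-induced member. The related Car12 stood at 13.9, 11.5, 10.6 and 13.1 CPM and was 1.22-fold lower (1.05 to 1.41) at 8 h and 1.31-fold lower (1.12 to 1.53) at 16 h. Both carbonic anhydrase genes were thus low in the same libraries, Car9 to a far greater degree.

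P4ha1 (chromosome 10, 59323296 to 59373304, plus strand) and P4ha2 encode catalytic subunits of the collagen prolyl 4-hydroxylase, which stabilises the collagen helix. P4ha1 had 21916, 13612, 13288 and 22080 reads, or 775, 474, 479.6 and 797 CPM, and was 1.64-fold lower (1.60 to 1.67) at 8 h and 1.62-fold lower (1.58 to 1.65) at 16 h, while at 20 h it was 1.03-fold higher (1.01 to 1.05). P4ha2 stood at 146, 104, 98.9 and 131 CPM and was 1.41-fold lower (1.34 to 1.48) and 1.48-fold lower (1.41 to 1.55) at 8 and 16 h, and 1.11-fold lower (1.06 to 1.16) at 20 h. Per length P4ha1 was the main subunit, at 188, 115, 117 and 194 CPM per kb against 23.4, 16.6, 15.8 and 21.0 for P4ha2. The mesenchymal markers Col3a1 and Dcn, whose products are matrix proteins, were 2.05-fold lower and 3.20-fold lower at 8 h. The other 4 of the 6 measured mesenchymal markers were not called there. The median log2 ratio of the 6 was -0.06, and the whole list summed to 2815 CPM with no LPS and 3125 CPM at 8 h. The part of mesenchymal cells in the P4ha1 and P4ha2 values was not tested.

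Ndrg1, a stress-responsive gene of differentiation, stood at 884, 639, 633 and 851 CPM and was 1.38-fold lower (1.36 to 1.41) at 8 h and 1.395-fold lower (1.37 to 1.42) at 16 h. Adm, which encodes the vasodilator and barrier-protecting peptide adrenomedullin, stood at 98.4, 70.0, 68.1 and 91.2 CPM and was 1.405-fold lower (1.33 to 1.49) and 1.44-fold lower (1.36 to 1.53) at 8 and 16 h. Ankrd37, a compact HIF-1 target gene, had 196, 155, 162 and 265 reads and was the member with the largest ratio on the higher side at 20 h, 1.38-fold higher (1.14 to 1.67), after 1.28-fold lower (1.04 to 1.60) at 8 h and a ratio of 0.843 (0.680 to 1.04) at 16 h. These 3 genes were low at 8 and 16 h, with counting error of Ankrd37 at 16 h reaching 1. Hilpda, which encodes an inhibitor of lipid droplet lipolysis, stood at 57.0, 75.7, 75.2 and 55.8 CPM and was 1.33-fold higher (1.25 to 1.42) at 8 h and 1.32-fold higher (1.24 to 1.41) at 16 h. Ddit4 (REDD1), which restrains mTORC1 under stress, stood at 139.7, 177, 187 and 176 CPM and was above no LPS in all 3 libraries, 1.27-fold higher (1.21 to 1.32), 1.34-fold higher (1.29 to 1.397) and 1.26-fold higher (1.21 to 1.32). The mitophagy receptor genes Bnip3 and Bnip3l were nearly level, at 50.7, 54.3, 56.4 and 49.0 and 79.9, 81.4, 82.5 and 76.6 CPM, with a ratio of 1.07 (0.997 to 1.15) and a ratio of 1.02 (0.962 to 1.08) at 8 h.

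Further hypoxia targets outside the 38 also divided. Of 35 listed genes 27 were measured. At 8 h 2 were called higher and 2 lower, at 16 h 3 and 2, and at 20 h none, with median log2 ratios of -0.27, -0.27 and -0.02. Over all measured genes 4.19% were called higher and 4.13% lower at 8 h. The shares were 4.13% and 4.09% at 16 h, and 0.551% and 0.102% at 20 h. Ero1l, an oxidase of disulfide formation in the endoplasmic reticulum, stood at 2283, 1135, 1149 and 2282 CPM and was 2.01-fold lower (ratio 0.497, 0.490 to 0.504) at 8 h and 1.99-fold lower (ratio 0.503, 0.497 to 0.510) at 16 h, the latter just short of the threshold. Vegfa, the main angiogenic growth factor and a classical HIF target, stood at 465, 235, 237 and 505 CPM, 1.98-fold lower (ratio 0.505, 0.491 to 0.521) at 8 h and 1.96-fold lower (ratio 0.510, 0.495 to 0.526) at 16 h, and was not called. Stc2, which encodes the glycoprotein stanniocalcin 2, was 2.45-fold lower (ratio 0.407, 0.352 to 0.471) and 2.35-fold lower (ratio 0.425, 0.367 to 0.491). The libraries labelled no LPS and 20 h held the higher values of all 3 genes, as for P4ha1 and Car9.

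On the higher side stood Hmox1, which encodes the heme-degrading oxygenase and also answers to NRF2, at 197, 516, 495 and 183 CPM, 2.62-fold higher (2.54 to 2.70) at 8 h and 2.51-fold higher (2.44 to 2.59) at 16 h. Loxl2, a collagen crosslinking enzyme gene with 9, 27, 32 and 7 reads, was 3.63-fold higher (1.69 to 8.64) at 16 h, and the nuclear receptor gene Rora, with 82, 45, 33 and 73 reads, was 2.44-fold lower (ratio 0.411, 0.265 to 0.622) there. Both were named after their values were seen. Genes of this list therefore stood on both sides at 8 and 16 h, as measured genes as a whole did.

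Of 26 other genes of glycolysis and gluconeogenesis 12 were measured, and 1 was called higher at 8 and at 16 h and none at 20 h (median log2 ratios -0.09, -0.11 and -0.06). It was Pfkfb1, a relative of Pfkfb3, with 61, 193, 165 and 55 reads, 3.11-fold higher (2.32 to 4.23) at 8 h and 2.76-fold higher (2.05 to 3.76) at 16 h. Of 19 other sugar and monocarboxylate carriers 10 were measured and none was called at 8, 16 or 20 h (medians -0.16, -0.19 and 0.05). Of 17 genes of the pentose phosphate pathway and of glycogen 16 were measured, again with none called (medians -0.02, -0.05 and -0.03). Over all measured genes 8.31%, 8.23% and 0.652% were called at 8, 16 and 20 h. Few or no called genes in lists this short thus do not set them apart. Pfkfb4, Pdk2, Gbe1 and Gys1 stand in more than 1 of these lists.

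**Figure D4:**
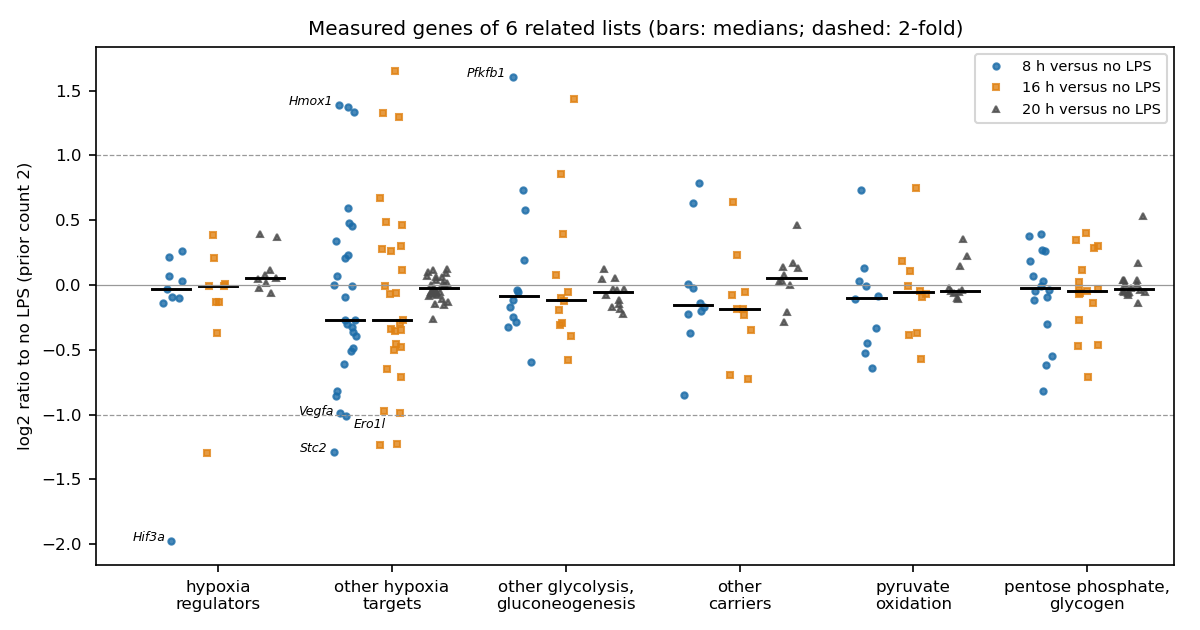
Log2 ratio to no LPS (vertical axis, prior count of 2) of each measured gene in 6 related lists, for the libraries labelled 8 h (circles), 16 h (squares) and 20 h (triangles), with list medians as black bars and dashed lines at 2-fold. The hypoxia targets spread on both sides at 8 and 16 h, with Stc2, Ero1l and Vegfa near or below the lower line and Hmox1 above the upper line, and the 20 h points cluster near 0.

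Successive labels were compared next. Between 8 and 16 h no member was called, where 0.237% of measured genes were (0.161% higher, 0.0763% lower), and none passed 1.5-fold (background 0.779%, of which 0.458% higher and 0.322% lower). Intervals excluded 1 for 9 members, 2 above and 7 below (background 10.5%, of which 5.23% above and 5.24% below). Those above were Ddit4 (1.06-fold, 1.02 to 1.10) and Egln3 (1.06-fold, 1.02 to 1.09), and those below included Eno1 (1.07-fold, 1.04 to 1.09) and Pfkl (1.06-fold, 1.03 to 1.09). Both libraries therefore held nearly the same profile of the pathway.

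Between 16 and 20 h 2 members were called, against 8.47% of measured genes (4.63% higher, 3.85% lower). Car9 was 3.08-fold higher (1.96 to 4.99) at 20 h than at 16 h, and Gapdh was 2.16-fold lower (1.93 to 2.43). The Gapdh fold is uncertain because of its many copies. At 1.5-fold 7 passed, against 20.7% of measured genes (10.6% higher, 10.2% lower): P4ha1 (1.66-fold, 1.63 to 1.70) and Ankrd37 (1.64-fold, 1.34 to 2.002) joined Car9, and Hk1 (1.66-fold, 1.59 to 1.73), Pfkm (1.63-fold, 1.53 to 1.75) and Pfkfb3 (1.51-fold, 1.39 to 1.64) joined Gapdh. Intervals excluded 1 for 34 members, 16 above and 18 below, where 71.1% of measured genes did so (36.5% above, 34.6% below). This comparison shares its 16 h library with that of 16 h against no LPS. All 4 carriers were above their 16 h values, among them Slc2a1 (1.28-fold, 1.25 to 1.31) and Slc16a1 (1.21-fold, 1.18 to 1.24).

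The hours on the labels also allowed a linear trend to be tested over the 4 libraries with edgeR's quasi-likelihood test, on 2 residual degrees of freedom. No member had a Benjamini-Hochberg adjusted p under 0.05, and neither did any other measured gene. In edgeR's test all 38 members shared an adjusted p of 0.9999, and 43 of 11803 genes, none of them a member, had an unadjusted p under 0.05. DESeq2's Wald test of the same trend called 0 genes as well, with 28 at an unadjusted p under 0.05. The 20 h library, last in time, lay nearer to no LPS than to 16 h, which a linear trend does not describe, and p-values over these libraries measure only their own spread, which may be technical.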

How the data were processed

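RNA from sorted mouse lung cells was sequenced in 4 libraries, 1 per label, and the deposited table gives raw counts of reads per gene. The authors made these counts with STAR and featureCounts on mm10, per the submitters' processing notes; versions, annotation, strand setting and the treatment of multi-mapping reads are not stated there. Symbols, coordinates (counted from 1) and exon lengths came from GENCODE M21, which held 38872 of the 39056 gene identifiers (99.53%). Counts were scaled with TMM factors (edgeR 4.0.16, R 4.3.3). With 1 library per label, pairs of labels were compared by fold with exact (Clopper-Pearson) 95% binomial intervals, which cover counting error only, and by log2 ratios with a prior count of 2. A linear trend over label hours was tested with edgeR, and with DESeq2 1.42.0 as an alternative. Other settings varied the scaling, CPM minimum, fold threshold, interval level, prior count and GC content. The fold rule and the trend were also run on simulated counts, with outcomes not given here. How large a trend 4 libraries could detect is thus not stated.

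Shared sequence was searched in annotated transcripts with BLAST 2.17.0, not in the genome. Upstream windows came from RefSeq. The members and gene lists were chosen with earlier results of these data known. Outside the members, the genes named were those called against no LPS, at most 6 per list in order of log2 ratio, if a library held 100 reads or more, plus 5 HIF pathway genes and 4 markers; other names are given as chosen after their values were seen. A further gene that met this rule is not reported here. A 24 h time point in the protocol is not analysed here.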

Additional observations from a re-analysis of the deposited data

How the results depend on the processing

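No paired analysis was possible because each label has 1 library. Scaling by library size, DESeq2 size factors or upper quartiles changed 0 member calls. Among 190 member folds per scaling, 2, 2 and 4 reached or crossed 1 after rounding. They were Slc16a3 at 16 h, Slc2a1 at 20 h, and Slc16a1, Pdk1 and Egln1 between 16 and 8 h. Each was at most 1.019-fold from 1 on the TMM scale. Slc2a1 at 20 h reached 1 only by rounding and did not cross it. GC correction and a 99% interval also kept the member counts. With a minimum of 10 CPM in the higher library the called genes numbered 332 at 8 h, 332 at 16 h, 22 at 20 h, 0 between 8 and 16 h and 357 between 16 and 20 h, and the called members 0, 0, 0, 0 and 1, Car9 lying under that minimum. With no minimum 1484 genes were called at 16 h, 216 at 20 h and 172 between 8 and 16 h. At a fold of 1.5 the genes numbered 2343, 2356, 236, 92 and 2449 in the 5 comparisons, and the members 5, 6, 1, 0 and 7. At a fold of 4 they numbered 187, 178, 9, 2 and 184, and the members, in the order of those comparisons, 1, 0, 0, 0 and 0. A 99% interval left 18 genes between 8 and 16 h. The trend called 0 genes with either tool in the main setting. With edgeR it also called 0 under library size scaling, with no CPM minimum and with a minimum of 10 CPM. Leaving out any 1 of the libraries in edgeR gave 0 as well (range 0 to 0), which with 1 residual degree of freedom says nothing about stability. No member fold can be separated from variation between animals.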
